A study of Drosophila melanogaster with 33 samples.

Results

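The bithorax complex is the stretch of chromosome arm 3R that holds the Hox genes Ubx (FBgn0003944), abd-A (FBgn0000014) and Abd-B (FBgn0000015). Its peaks were taken as all peaks of 13 deposited ChIP-seq lists that overlap 3R 12480000 to 12810000 on fly genome build dm3. They numbered 192 of the 94396 peaks of those lists. The genes were placed at about 12482000 to 12560000 for Ubx, 12632000 to 12656000 for abd-A and 12752000 to 12798000 for Abd-B. All 3 genes are transcribed on the minus strand, so the right limit of each gene is the end at which its longest transcripts start. The rule takes peaks by position alone and uses no peak score or count.

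Cells of the S2-DRSC line (a wild-type Drosophila line derived from late embryos, here S2) were compared with S2-DRSC-HA::AbdA cells (here S2-AbdA), which were stably transfected with a tagged copy of AbdA, the protein made by abd-A. Both lines had 10 µM copper sulphate for 24 h. Chromatin was precipitated in both lines with antibodies to 6 factors, each with 2 replicates, and in S2-AbdA cells also with an antibody to the HA tag of the transgene. The sources used here do not give whether the transfected line is 1 clone or a pool, how strongly it expressed the transgene, or whether replicates were separate cultures.

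Hox proteins are transcription factors that give body segments their identity along the head-to-tail axis. Ubx acts in the posterior thorax and the first abdominal segment, abd-A in the abdomen, and Abd-B in the most posterior segments and the genitalia. Large regulatory regions between and within the genes set where each is active. In cells where a Hox gene is off, Polycomb group proteins hold it silent, acting from DNA elements that collect the complexes PRC2, whose enzyme E(z) methylates histone H3, and PRC1, to which dRing belongs. GAF (GAGA factor) binds GA-rich DNA at promoters and at many Polycomb elements, and M1BP binds the Motif 1 sequence of many housekeeping promoters. Rpb3, a core subunit of RNA polymerase II, shows where the polymerase sits, and Ser2P is the form of the polymerase phosphorylated during elongation.

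Each antibody had a single deposited list per line, which the labels name for both of its replicates, so no replicate error could be computed, and each comparison is a description with no test. Without read counts in the files, the depth behind a list is unknown. Peak scores are the authors' own, in a unit that is not stated, and served to rank peaks within a list. Where scores of both lines are printed for a site, they describe each list, and no common scale is known. A difference between such scores was not tested as a change between the lines. All 6 factor lists of S2 cells carry input code B, the GAF and HA lists of S2-AbdA cells carry code C, and the other 5 lists of that line carry code D, so line and input code cannot be told apart. No list was used here for the HA sample of S2 cells, which carry no transgene, and HA background could not be assessed.

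dRing peaks were far more frequent in the complex than in the median window of its size, and Rpb3 peaks far fewer. The dRing lists held 27 peaks (S2) and 32 (S2-AbdA), where the median of 358 windows of the same length (330 kb) tiled along arms 2L, 2R, 3L, 3R and X was 7 and 10. The complex was not the extreme, as the largest dRing count in any of these windows was 31 (S2) and 65 (S2-AbdA). dRing peaks covered 8.76% of the complex in S2 cells against 1.64% of the arms, and 7.18% against 1.84% in S2-AbdA cells. These shares include a wide peak between Ubx and abd-A, described below, of 6231 bp (S2) and 6015 bp (S2-AbdA). E(z) had 18 and 22 peaks (S2 first, as in the counts that follow) against medians of 11 and 10. GAF had 17 peaks in S2 cells, and 28 in those with the transgene, close to the medians of 14 and 25.5. Rpb3 had only 2 and 5 peaks against medians of 25 and 24.

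The remaining lists were sparse in the complex or near the typical window. M1BP had 6 and 10 peaks (medians 15 and 13), and Ser2P had 3 and 4 (medians 4 and 10). HA-AbdA had 18 peaks against a median of 28, and covered 4.96% of the complex against 10.04% of the arms. That count was below the lower quartile of the tiled windows, 19. The dRing peaks also ranked high, with 8 of 27 (29.6%) in S2 cells and 14 of 32 (43.8%) in S2-AbdA cells among the 10% of peaks with the highest scores in their list. No E(z), M1BP, Rpb3 or Ser2P peak of the complex was in that top class.

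**Figure D1:**
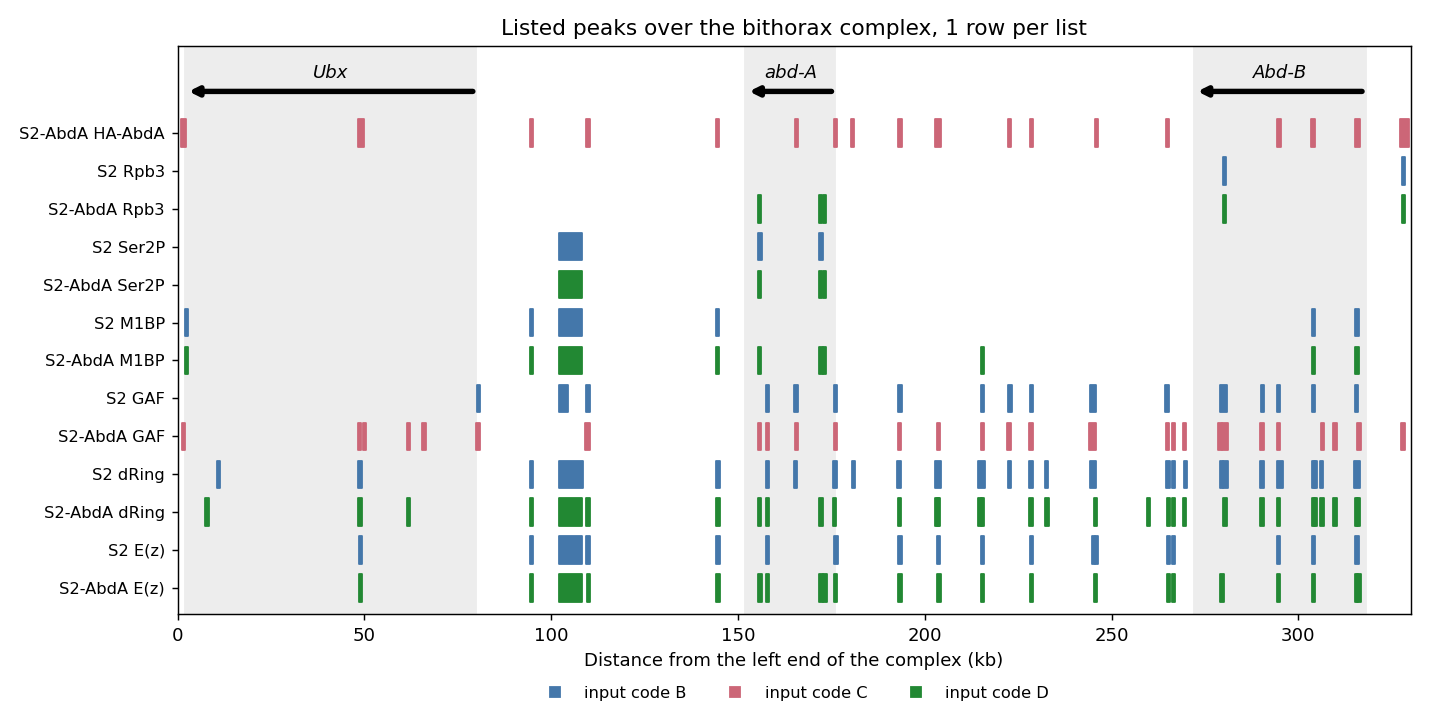
Peaks of the 13 lists along the bithorax complex, with distance from its left end in kb on the x axis, 1 row per list coloured by input code, and the 3 genes as arrows (peaks narrower than 0.9 kb are drawn 0.9 kb wide). The dRing and E(z) rows hold most of their peaks to the right of the abd-A gene, and the Rpb3 rows hold only 2 and 5 peaks.

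**Figure D2:**
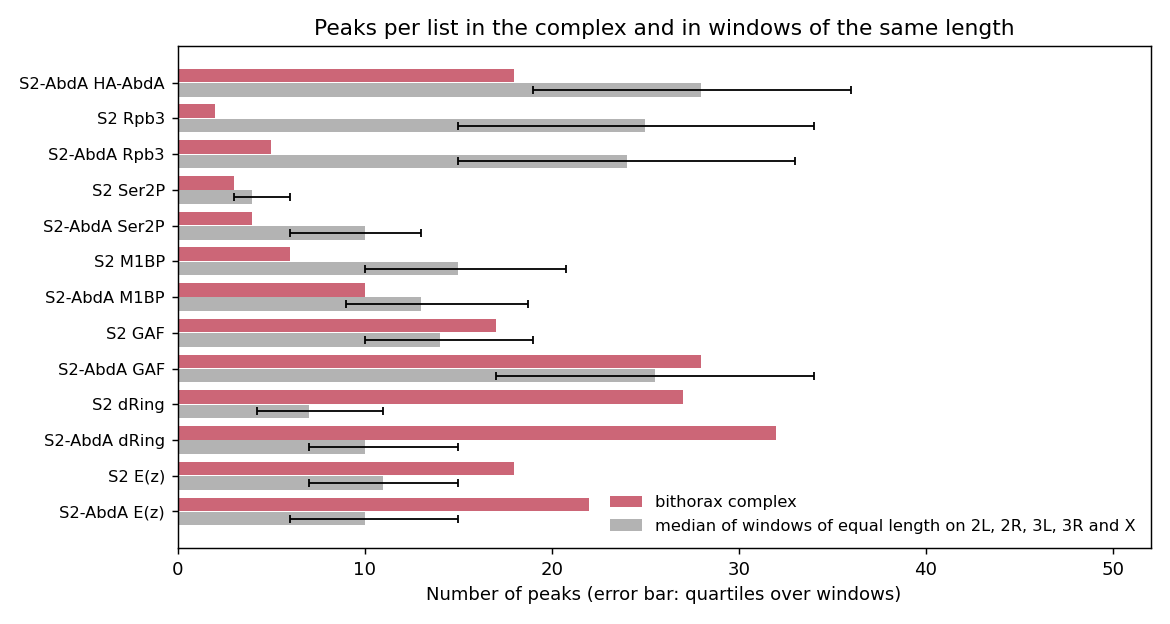
Number of peaks per list in the complex (bars) beside bars for the median of 358 windows of equal length on the arms, with quartiles as error bars. The dRing bars of the complex, 27 and 32, end above the quartile range, and the Rpb3 bars, 2 and 5, end below it.

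The peaks were spread unevenly over the genes. Ubx, the longest at 78 kb, held 14 of the 192 peaks, or 1.79 per 10 kb. The 24 kb of abd-A held 33 (13.75 per 10 kb), and the 46 kb of Abd-B held 46 (10 per 10 kb). The abd-A count includes 3 short stretches described below, at which 7, 6 and 4 lists had a peak. Of these lists, 6, 5 and 4 were factor lists of S2-AbdA cells. A large part of the abd-A density therefore comes from these stretches. The density without them was not computed, so the printed value does not rank abd-A against the other parts apart from them. Between the genes, the 72 kb from Ubx to abd-A held 31 peaks (4.31 per 10 kb) and the 96 kb from abd-A to Abd-B held 62 (6.46 per 10 kb). When overlapping peaks of all lists were joined, they formed 38 sites, of which 5 lay in Ubx, 6 in abd-A, 8 in Abd-B, 5 between Ubx and abd-A and 12 between abd-A and Abd-B. At 30 of them both lines had a factor peak.

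AbdA peaks in the complex lay mostly on Polycomb peaks. Of the 18 HA peaks, 15 (83.3%, exact Clopper-Pearson 95% interval 58.6 to 96.4%, which covers counting error only) overlapped a dRing peak of S2 cells, against 15.5% of the 10312 HA peaks on the arms. With the S2-AbdA dRing list the count was 13 (72.2%), against 17.9% on the arms. E(z) gave 13 in each line (72.2%), against 23.7% (S2) and 20.7% (S2-AbdA) on the arms. A peak of dRing or E(z) lay under 16 HA peaks with the S2 lists and under 13 with the S2-AbdA lists, against 28.2% and 29.0% on the arms.

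The other factors differed widely in how often they lay under an HA peak. GAF peaks of S2 cells lay under 11 of the 18 HA peaks (61.1%, 28.2% on the arms), and those of S2-AbdA cells under 14 (77.8%, 42.5% on the arms). With only the higher-scoring 50% of each list, the share on GAF of S2 cells was 30.8% and that on M1BP of S2-AbdA cells was 0%. M1BP lay under 5 in each line (27.8%), near the 32.9% and 29.4% of the arms. That share is limited by the number of M1BP peaks in the complex, 6 and 10. Of the 6 M1BP regions listed in both lines, 5 held an HA peak, and of the 4 listed in S2-AbdA cells alone 0 did. Rpb3 lay under 1 HA peak in each line (5.56%, interval 0.141 to 27.3%), against 47.4% (S2) and 45.6% (S2-AbdA) on the arms. Ser2P lay under 0 of 18 (exact interval up to 18.5%), against 11.4% and 26.2% on the arms. The complex held only 2 and 5 Rpb3 peaks and 3 and 4 Ser2P peaks, which by itself caps these shares. The gap to the arms therefore cannot be read as a trait of the HA peaks, and the intervals do not include this cap. All 18 HA peaks had a peak of at least 1 factor in S2 cells, whereas 34.0% of the arm peaks had none. The HA peak on Rpb3 lay at the right edge of the complex, beyond the limit of Abd-B, and without the HA peaks of both edges the Rpb3 share was 0% in each line.

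**Figure D3:**
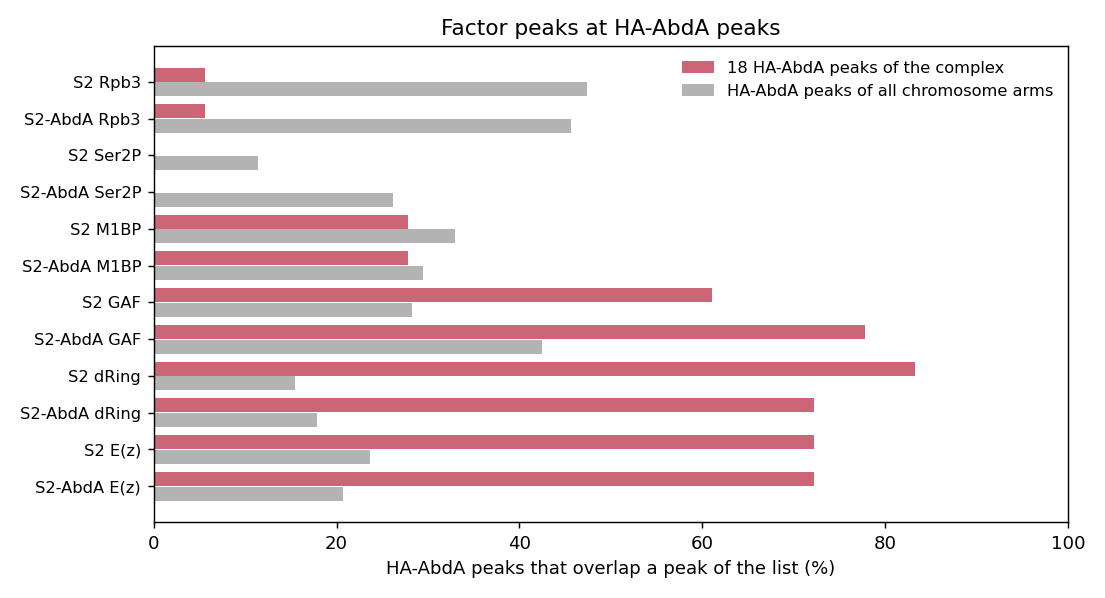
Percent of HA-AbdA peaks that overlap a peak of each factor list, in the complex (18 peaks) and on the arms (10312 peaks). The dRing and E(z) shares in the complex lie between 72.2% and 83.3%, and the Rpb3 shares are 5.56% in both lines.

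The HA peak with the highest rank in the complex lay between Ubx and abd-A, at 3R 12589266 to 12590376, and ranked 93 among 10352 peaks (score 179). GAF and E(z) peaks lay there in both lines, and the S2-AbdA dRing list added a peak at 12589294 to 12590410 (score 189) that ranked 42 among 6615. The S2 dRing list held no peak at that place. The next HA peaks by rank lay in Ubx at 12528323 to 12529942 (rank 417, score 129.5) and in Abd-B at 12795093 to 12796419 (rank 540, score 120.8). Within abd-A itself there was a single HA peak with its centre inside the limits, at 12645134 to 12645725 (rank 5701, score 33.3), and a stronger one straddled the right limit of the gene, at 12655621 to 12656417 (rank 1674, score 79.5).

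Between Ubx and abd-A, 12624110 to 12624880 (rank 1645, score 80.1) and 12574248 to 12574709 (rank 3274, score 53.8) each lay on M1BP, dRing and E(z) peaks of both lines, with no GAF. In Abd-B, 12774230 to 12775206 (rank 1338, score 88.0) lay on GAF, dRing and E(z) of both lines. The remaining peak of Abd-B, 12783455 to 12783904 (rank 2013, score 72.6), lay on M1BP, dRing and E(z) of both lines and on GAF of S2 cells alone.

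Of the 8 HA peaks between abd-A and Abd-B, 5 lay on dRing and E(z) of both lines with GAF of both lines: the one at the right limit of abd-A, 12672959, 12708056 (rank 3766, score 48.9), 12725514 (rank 4168) and 12744554 (rank 1526, score 83.0), named here by their starts. The peak at 12682842 to 12684277 (rank 3927, score 47.3) lay on dRing and E(z) of both lines, with GAF in S2-AbdA cells alone. At 12702223 to 12702759 (rank 9147, score 16.6) GAF lay under the HA peak in both lines and dRing in S2 cells alone. The peak at 12660244 to 12660723 (rank 8952, score 17.4) had dRing in S2 cells and no factor in S2-AbdA cells.

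The 2 HA peaks with centres outside the genes and their intervals had no Polycomb peak in either line. The left one, 12480807 to 12482239 (rank 7559, score 23.3), straddled the left limit of Ubx. It lay on M1BP of both lines and on GAF of S2-AbdA cells. The right one, 12807271 to 12809488 (rank 1306, score 88.7), lay on Rpb3 of both lines and on GAF of S2-AbdA cells, and was the widest HA peak of the complex at 2218 bp.

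The dRing and E(z) lists shared most of their E(z) peaks in the complex. In S2 cells 17 of 18 E(z) peaks (94.4%) overlapped a dRing peak, against 47.6% on the arms, and in S2-AbdA cells 20 of 22 did (90.9%), against 48.6%. The reverse share was 16 of 27 dRing peaks on E(z) in S2 cells (59.3%, 69.4% on the arms) and 20 of 32 in S2-AbdA cells (62.5%, 50.5% on the arms). GAF lay under 16 of 27 dRing peaks in S2 cells (59.3%, 44.9% on the arms) and 20 of 32 in S2-AbdA cells (62.5%, 50.0% on the arms). M1BP lay under 5 of 18 E(z) peaks in S2 cells (27.8%, 52.8% on the arms) and 9 of 22 in S2-AbdA cells (40.9%, 48.6% on the arms).

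At 16 of the 38 sites all 4 Polycomb lists had a peak. HA-AbdA peaks lay at 12 of these 16 sites, GAF of both lines at 9, M1BP of both lines at 5, and Rpb3 of either line at none. Of the 9 with GAF, 7 also held HA. The 4 with M1BP and HA started at 12574248, 12624110, 12783455 and 12795007, the first pair between Ubx and abd-A and the second in Abd-B. The 4 Polycomb sites with no HA peak started at 12582009, 12637391, 12694207 and 12746032. The first of these is the wide site described below, where Ser2P and M1BP of both lines also had peaks.

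Ubx, in which the dRing lists held 2 and 3 peaks, was the emptiest of the 3 genes. Its site with most lists lay well inside the gene, at 12528283 to 12530058, where dRing and E(z) had peaks in both lines and HA-AbdA ranked 417. There dRing scored 89.9 in S2 cells (rank 411 of 4891) and 171 in S2-AbdA cells (rank 59 of 6615). That S2 score is among those with more than 5 decimals, described below, and a change between the lines was not tested. The S2-AbdA GAF list added 2 peaks at that site, at 12528283 to 12529149 (score 227) and 12529583 to 12530058 (score 59.6), and the S2 GAF list had none. At the right limit of Ubx, where its transcripts start, both lines had a GAF peak, at 12560062 to 12560528 (score 79.0) in S2 cells and 12559968 to 12560570 (score 257) in S2-AbdA cells. No dRing, E(z), HA-AbdA or Rpb3 peak lay at that promoter end.

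Between Ubx and abd-A, 8 of the 13 lists held a wide peak, which was also the widest of the complex in each of them. The joined site ran from 12582009 to 12588436 and held peaks of 6015 to 6296 bp in the Ser2P, M1BP, dRing and E(z) lists of both lines. The S2 GAF list held a narrower peak of 2369 bp at its left end, and the HA-AbdA, Rpb3 and S2-AbdA GAF lists held none. It started 22.0 to 22.2 kb right of the Ubx limit, and in the Release 6 genome a mobile element named diver, 6133 bp long, starts 21.9 kb right of Ubx. The builds were not aligned here, and the part of that element in the peak was not tested.

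At abd-A the S2-AbdA lists held peaks over 3 short stretches that the S2 lists, apart from Ser2P, did not. Rpb3 had peaks at 12635311 to 12636178 (score 79.9), 12651676 to 12652146 (score 49.4) and 12652730 to 12653074 (score 21.2) in S2-AbdA cells. The S2 Rpb3 list had 0 peaks in abd-A. M1BP had a peak at each of the 3 stretches (scores 14.2, 16.0 and 16.2), as did E(z) (scores 17.2, 24.2 and 19.3). dRing had peaks at the first and second (scores 42.7 and 41.5) and GAF at the first (score 14.6). M1BP ranked 6355, 6173 and 6148 of 6639 and GAF 9319 of 9530, near the end of their lists, while dRing ranked 883 and 906 of 6615. All these peaks at the stretches were in S2-AbdA cells alone. Ser2P scored 39.3, 38.2 and 7.17 there in S2-AbdA cells and, in S2 cells, 4.75 and 10.8 at the first and second, at ranks 2937 and 1933 of 4309. HA-AbdA had no peak at any of them.

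These stretches were spaced like the coding exons of abd-A. In the Release 6 annotation, the transcript with the shortest coding sequence has 5 coding exons, and the left block of that gene (666 bp) lies 16156.5 bp, centre to centre, from the middle exon, which lies 1000 bp from the right one. The centres of the 3 Rpb3 peaks on dm3 were 16166.5 and 991 bp apart. The remaining coding exon, of 48 bp, had no peak. The cells carry an extra copy of an abd-A sequence, and whether reads from that copy gave these peaks was not tested. Of the 31 regions listed in S2-AbdA cells alone, 13 lay at these stretches.

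**Figure D4:**
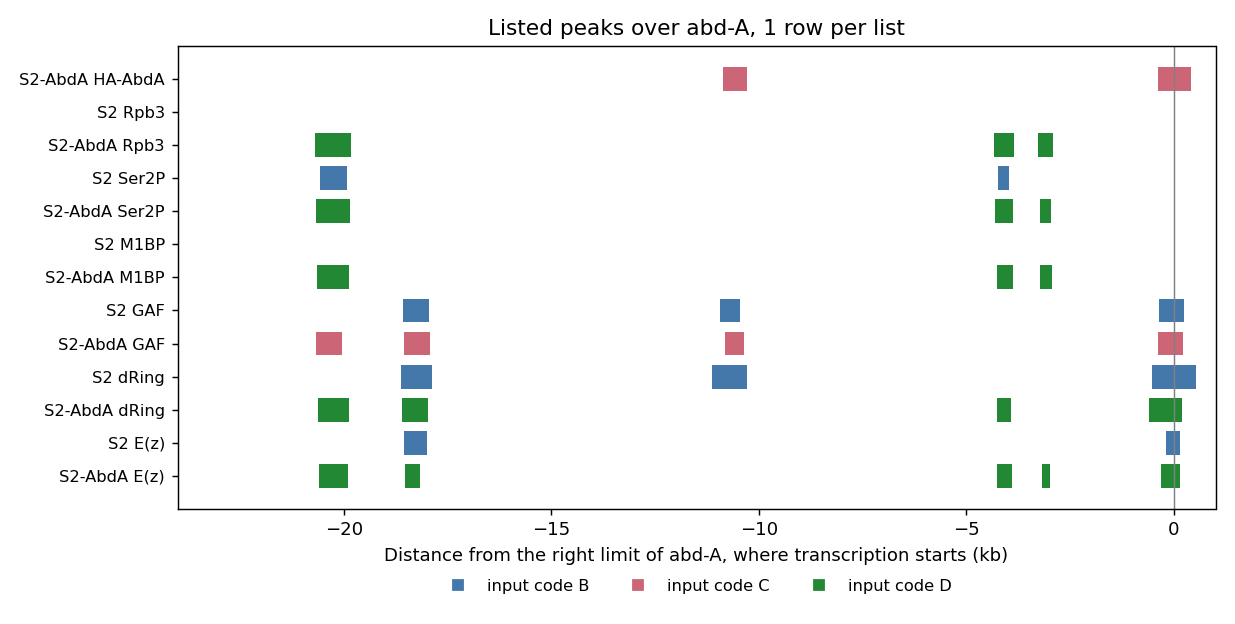
Peaks over abd-A in both lines, with distance from the right limit of the gene in kb on the x axis and 1 row per list. The 3 stretches with S2-AbdA peaks of Rpb3, M1BP and E(z) hold no HA-AbdA peak.

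The Polycomb peaks of abd-A that were listed in both lines lay outside these stretches. At 12637391 to 12638131, dRing scored 146 in S2 cells (rank 131 of 4891) and 129 in S2-AbdA cells (rank 165 of 6615), with E(z) and GAF in both lines and no HA. At the right limit of the gene, dRing scored 75.0 (rank 615) and 161 (rank 72), E(z) scored 32.4 and 49.3, GAF scored 162 and 267, and HA-AbdA ranked 1674. A dRing peak at 12644878 to 12645725, over the HA peak inside the gene, was listed in S2 cells alone (score 94.1).

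The interval from abd-A to Abd-B, the longest part at 96 kb, held 8 of the 18 HA peaks and the largest number of Polycomb peaks. These were 11 and 12 dRing peaks and 8 and 7 E(z) peaks in S2 and S2-AbdA cells. Per 10 kb, dRing had 1.15 and 1.25 peaks in this interval against 1.74 and 1.96 in Abd-B. For E(z) the values were 0.83 and 0.73 against 0.65 and 1.09. HA peaks of the interval ranked between 1526 and 10045, and the highest of them, at 12744554 to 12745219, lay on GAF, dRing and E(z) of both lines. At 12672959 to 12673353 the HA peak ranked near the end of its list (10045), while dRing over it ranked 117 of 4891 in S2 cells and, in the transfected line, 53 of 6615. The highest E(z) peak of the complex lay in this interval in both lines, at 12694972 to 12695522 in S2 cells (score 59.9) and 12695007 to 12695474 in S2-AbdA cells (score 62.0). The dRing peak at 12708002 to 12708710 (rank 52 in S2-AbdA cells) and the GAF peak at 12724268 to 12725918 (rank 180 of 7083 in S2 cells) were the highest of their lists in this interval. A GAF peak at 12683160 to 12683926 was listed in S2-AbdA cells alone and ranked 37 among 9530 (score 385), on an HA peak.

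Abd-B was the only one of the 3 genes with an Rpb3 peak in both lines. It lay at 12759720 to 12760238 in S2 cells (score 105.5, rank 2228) and 12759742 to 12760227 in S2-AbdA cells (score 142, rank 1083), 7.7 kb right of the left limit of the gene. Release 6 lists an Abd-B transcript start 7.0 kb right of its left end. GAF and dRing peaks of both lines lay at that site, and no Ser2P peak lay anywhere in Abd-B. The 3 HA peaks of Abd-B ranked 540 to 2013. The site at 12795007 to 12796473 carried 9 lists, as many as the wide peak between Ubx and abd-A, and its S2 dRing peak was the highest of that list in the complex (score 185, rank 54).

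The lines were compared by joining the 2 lists of each factor into regions kept (a peak in both), listed in S2-AbdA cells alone (gained) or listed in S2 cells alone (lost). Over the 6 factors 65 regions were kept (62.5%, 55.5% on the arms), 31 were gained (29.8%, 28.2% on the arms) and 8 were lost (7.69%, 16.3% on the arms). With the higher-scoring 50% of each list set against the whole other list, 12 were gained and 3 lost, and with peak centres required to lie within 250 bp 14 were lost. The pooled shares compare unlike mixes of factors. Rpb3 gave 5 of the 104 regions in the complex and 10518 of 40767 on the arms, and dRing 34 and 5304. For dRing 22 of 34 regions were kept (64.7%, 33.9% on the arms), 7 were gained (42.6% on the arms) and 5 were lost (23.5% on the arms). The dRing gains depended on the setting. With centres within 250 bp 19 dRing regions were kept, 13 gained and 8 lost, and with lists of equal length 21 were kept, 4 gained and 6 lost. The higher-scoring 50% against the whole other list gave 16 kept, 4 gained and 3 lost. For E(z) 17 of 22 were kept (77.3%, 66.7% on the arms), 4 were gained (12.6% on the arms) and 1 was lost (20.7% on the arms). For GAF 15 of 29 were kept (51.7%, 40.7% on the arms), 12 were gained (41.4%, 47.7% on the arms) and 2 were lost (6.9%, 11.6% on the arms).

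The sparse factors lost no region. For Rpb3 2 of 5 were kept (69.2% on the arms), 3 were gained (11.7% on the arms) and 0 were lost (19.1% on the arms). For Ser2P 3 of 4 were kept (41.8% on the arms), 1 was gained (56.6% on the arms) and 0 were lost (1.53% on the arms). For M1BP 6 of 10 were kept (74.2% on the arms), 4 were gained (7.44% on the arms) and 0 were lost (18.4% on the arms). All 3 Rpb3 gains, the Ser2P gain and 3 of the 4 M1BP gains lay at the 3 stretches of abd-A. Elsewhere in the complex 18 regions were gained, and HA-AbdA lay on 6 of them, where 55.2% of all gained regions on the arms carried an HA peak. That arm share pools the 6 factors, while 11 of the 18 regions were of GAF and 5 of dRing. At the 3 stretches of abd-A lay also 3 of the 4 E(z) gains, 2 of the 7 dRing gains and 1 of the 12 GAF gains.

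HA-AbdA peaks lay on 12 of 22 kept dRing regions (46.3% on the arms), 1 of 7 gained (55.0% on the arms) and 3 of 5 lost (71.5% on the arms). The gained one was the region at 12589294 to 12590410. For E(z) they lay on 13 of 17 kept regions (60.0% on the arms). For GAF they lay on 10 of 15 kept (62.5% on the arms) and 5 of 12 gained regions (51.9% on the arms). The gained GAF regions with HA were at the left edge, at both peaks of the Ubx site at 12528283, at 12683160 to 12683926 and at the right edge, 12807520 to 12808333.

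By gene, the highest gained GAF region of Ubx was the peak at 12528283, followed by 12541318 (score 114) and 12545549 (score 63.2), and dRing gained 12487431 (rank 2883 of 6615) and 12541300 (rank 6273). In Abd-B, GAF gained 12785966 (score 50.9) and 12789329 (score 13.3), dRing gained 12789295 (score 5.48) and E(z) gained 12759124 (score 10.9). Between abd-A and Abd-B, GAF also gained 12749089 (score 73.3) and 12746090 (score 40.5), M1BP gained 12695019 (score 12.5) and dRing gained 12739341 (score 4.79). Ranks ran down to the end of the lists, with GAF at 12789329 at 9445 of 9530 and dRing at 12739341 at 6463 of 6615.

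The 8 lost regions were 5 of dRing, 2 of GAF and 1 of E(z). For dRing they were 12490544 in Ubx (score 29.4), 12644878 in abd-A (score 94.1, rank 363 of 4891), 12660388 and 12702267 between abd-A and Abd-B (scores 23.6 and 10.6), and 12759029 in Abd-B (score 36.7). HA-AbdA lay on those at 12644878, 12660388 and 12702267. For GAF they were the left end of the wide site, 12582085 (score 18.3), and 12783530 in Abd-B (score 13.6), the latter with HA-AbdA. For E(z) it was 12724668 (score 8.78), which lies in the interval before Abd-B.

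Several kept dRing sites were cut into peaks of different extent in the 2 lists, which differ in length, so their ranks cannot show a change between the lines. The S2 peaks at 12682831 and 12694207 each met 2 S2-AbdA peaks, and the S2 peak at 12724207 (1702 bp) met a peak of 686 bp. At 12795007 to 12796473 dRing ranked 54 among 4891 in S2 cells, and the S2-AbdA list held 2 peaks there that ranked 502 and 168 among 6615. At 12774183 dRing ranked 1746 in S2 cells, where the peak was 1717 bp wide, and at 12774196 it ranked 61 in S2-AbdA cells, where the peak was 599 bp wide. In all, 18 of the 192 peaks have a score with more than 5 decimals, and their median width was 1434.5 bp against 517.5 bp for the rest. Means of several values would give such decimals, and the part of joined peaks in these ranks was not tested.

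**Figure D5:**
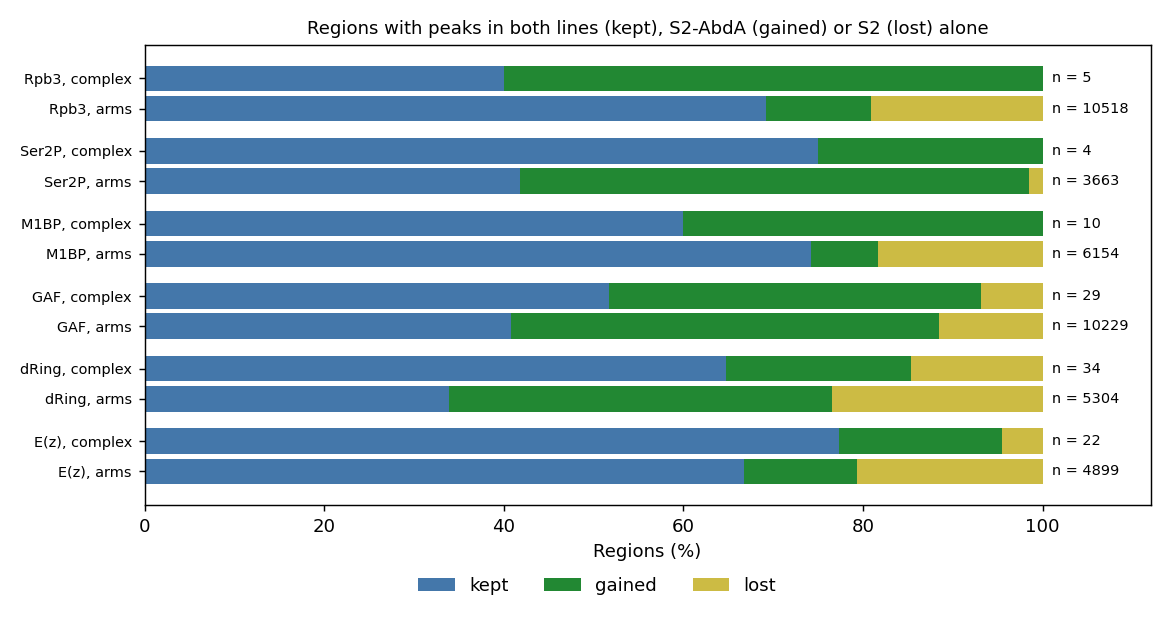
Percent of regions of each factor that were kept, gained or lost between S2 and S2-AbdA lists, in the complex and on the arms. In the complex 64.7% of dRing regions and 77.3% of E(z) regions were kept, and no Rpb3, Ser2P or M1BP region was lost.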

How the data were processed

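ChIP-seq peak lists of S2 and S2-AbdA cells were read as deposited, 1 list per antibody and line (13 lists). Per the submitters' processing notes, reads were aligned with BWA 0.7.12 and peaks were called with MACS2 on build dm3. The sources used here give neither the settings nor how replicates were combined. The score column is the authors' deposited value for each peak, of unstated unit. Depth is unknown.

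Peaks were counted where they overlapped the complex by 1 bp, assigned to genes or intervals by their centre, and joined into sites and regions with an overlap of 1 bp or more, using Python 3.11.15, pandas 2.3.3 and numpy 2.4.6. Overlaps were checked with bedtools 2.31.1 (18 counts, 0 differed), and the region classes were tested on simulated data. Peaks named in the text were every HA peak, the highest peak of each list and segment, the highest gained and lost regions, the widest peaks and the sites with most lists; which of the factor peaks are printed was chosen from these after their values were seen. The members and lists were chosen with earlier results of these data known. Release 6 annotation gave strands, lengths and spacings only, and its coordinates were not set on dm3. Alternatives were stricter overlap, lists of equal length, only the higher-scoring 50% of each list, and wider limits.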

Additional observations from a re-analysis of the deposited data

How the results depend on the processing

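No paired analysis was possible because the authors gave 1 list for both replicates, and no replicate could be left out. With the higher-scoring 50% of each list, peak counts in the complex moved for S2 M1BP (3), S2-AbdA M1BP (1), S2 GAF (9), S2-AbdA GAF (18) and S2-AbdA E(z) (14), and covered shares for S2-AbdA M1BP (1.88%) and S2 GAF (2.52%). Peaks of all lists became 9 in Ubx, 21 in abd-A, 40 between abd-A and Abd-B and 27 in Abd-B, and HA peaks on M1BP of S2-AbdA cells became 0% and on GAF of S2 cells 30.8%. Against the whole other list, that 50% gave 12 gained and 3 lost regions. Widening the complex by 10 kb on each side gave covered shares of 2.52% and 2.68% for Rpb3 and 3.75% and 5.66% for Ser2P in S2 and S2-AbdA cells. With centres within 250 bp, HA peaks on Rpb3 became 0% in both lines and lost regions 14. Chosen after seeing the data, leaving out the HA peaks at the edges of the complex also gave 0% on Rpb3 in both lines. Leaving out the 3 abd-A stretches and the wide peak, likewise chosen after seeing the data, gave 2 Rpb3, 0 Ser2P and 6 M1BP peaks in S2-AbdA cells, 0 Ser2P peaks in S2 cells, and 18 gained regions. The cause of these shifts was not tested, and keeping 50% of a list lowers its counts by design. A count or covered share was called moved where it differed from the reported value by a factor above 1.5 or became 0. A share of HA peaks was called moved where it left its exact 95% interval. Unknown depth limits every list: a missing peak may lie under its threshold.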
